A study of Mus musculus with 2 samples.

Results

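A set of 9 genes of the 32285 in the deposited matrices carries the interferon signal from the cell surface to the nucleus and is described here across the cells of the tumor-bearing lung. They are Ifngr1 and Ifngr2, the chains of the IFN-γ receptor, Ifnar1 and Ifnar2, the chains of the type I interferon receptor, the transcription factors Stat2, Irf9, Irf1 and Irf7, and the inhibitor Socs1. They were chosen by symbol, and all 9 were found once in each matrix. The lungs came from 12-week-old female BALB/cJ mice that carried a 4T1 mammary tumor and were collected on day 14 after inoculation. One group received intravenous saline and the other intravenous PLG (poly(lactide-co-glycolide)) nanoparticles (NP), in both cases repeatedly from the day after inoculation. Both groups share the strain, the tumor and the injection route, and the labels name no other agent or allele that separates them. Each group is 1 library made from cells pooled from 4 mice per the labels, so mice cannot be told apart and no difference has a replicate check. The comparison addressed is which lung cells carry the machinery to receive an interferon signal, and whether its level goes with the size of the NP against saline difference in interferon-induced genes.

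IFN-γ, made mainly by T cells and NK cells, binds a receptor of IFNGR1 and IFNGR2 and acts through Janus kinases and a STAT dimer that binds the gamma-activated sequence (GAS). IFN-α and IFN-β bind IFNAR1 and IFNAR2 and act through a complex of STAT2, IRF9 and a second STAT that binds the interferon-stimulated response element (ISRE). IRF1 and IRF7 are made in response to these signals and carry them to further genes, and SOCS1 blocks the Janus kinases and so ends the signal.

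Of the receptor genes, all but Ifngr1 lie together on chromosome 16 of GRCm38 (GENCODE M21), with Ifnar2 at chr16:91372783-91405589, Ifnar1 at chr16:91485238-91507441 and Ifngr2 at chr16:91547072-91565623, all on the plus strand within 192841 bases. Ifngr1 lies apart at chr10:19591949-19610229 on the plus strand. Stat2 lies at chr10:128270559-128292849, Irf1 at chr11:53770014-53778374 and Irf9 at chr14:55603571-55610030 on the plus strand, and Irf7 at chr7:141262706-141266481 and Socs1 at chr16:10782240-10785536 on the minus strand.

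The 9 genes have 11 promoter windows in the RefSeq table (GRCm38.p6), each 250 bases before to 50 after a start. They were searched on both strands for GAS, spelled TTCNNNGAA, and ISRE, spelled GAAANNGAAA. A GAS match began 5 bases before the Ifnar1 start and ran across it. GAS was also found upstream of Ifnar2 (214 bases before the start) and Irf1 (90 bases, in 1 of its windows). ISRE was found upstream of Stat2 (222 bases, on the minus strand) and Socs1 (83 and 77 bases, as 2 overlapping matches). No match lay in the windows of Ifngr1, Ifngr2, Irf7 and Irf9. Of all 32851 windows of this length, 8.30% held GAS and 3.44% held ISRE, so a match is a description of the letters and not a site in use. The stretches that follow show the matches of Irf1, Stat2 and Socs1, whose levels were higher in NP neutrophils, of Ifnar2, whose level differed little, and the bases next to the Ifngr1 start, which hold none. Levels of Irf7 and Irf9, which hold no match, were also higher in NP neutrophils. Capitals mark the match.
Irf1, chr11:53769874-53769993, plus strand, 140 to 21 bases before the start: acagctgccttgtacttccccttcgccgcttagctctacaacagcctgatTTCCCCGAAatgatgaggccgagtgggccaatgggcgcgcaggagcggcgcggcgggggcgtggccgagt
Socs1, chr16:10785557-10785676, minus strand, 140 to 21 bases before the start: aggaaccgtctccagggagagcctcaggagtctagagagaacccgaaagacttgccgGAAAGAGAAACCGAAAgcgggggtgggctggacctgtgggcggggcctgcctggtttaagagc
Stat2, chr10:128270248-128270367, plus strand, 250 to 131 bases before the start: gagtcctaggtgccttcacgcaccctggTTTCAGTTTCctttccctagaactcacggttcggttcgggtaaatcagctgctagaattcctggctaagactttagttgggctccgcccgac
Ifnar2, chr16:91372533-91372652, plus strand, 250 to 131 bases before the start: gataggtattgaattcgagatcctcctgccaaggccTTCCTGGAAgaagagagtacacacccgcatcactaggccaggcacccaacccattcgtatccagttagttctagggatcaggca
Ifngr1, chr10:19591829-19591948, plus strand, 120 to 1 bases before the start: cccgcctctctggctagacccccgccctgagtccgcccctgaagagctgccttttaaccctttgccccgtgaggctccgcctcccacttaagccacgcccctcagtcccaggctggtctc

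The saline library held 91168129 UMIs (transcripts counted by unique molecular identifiers) and 8662 cells with 500 to 5000 genes and under 7.5% mitochondrial UMIs, and the NP library 90081747 UMIs and 8333 cells. The median cell held 6474.5 and 6008 UMIs, and 21 cell barcodes occurred in both libraries. Cells were clustered with both libraries together, and a cluster was named from marker genes, so that each class name means cells like that type by those markers. A total of 11 classes had at least 50 cells in each library and were compared, and their saline and NP cells numbered 5593 and 3060 neutrophils, 571 and 715 classical monocytes, 99 and 377 monocytes that carried classical and non-classical markers at like scores (both-marker monocytes), 91 and 355 non-classical monocytes, 167 and 224 alveolar macrophages, 522 and 630 B cells, 506 and 418 T cells, 127 and 140 NK cells, 299 and 1110 endothelial cells, 93 and 137 fibroblasts and 52 and 51 epithelial cells. A further 430 saline and 875 NP cells stayed unnamed. The 15 neutrophil markers summed to 332519 and 354935 CPM (saline and NP) in neutrophils and to at most 34744 CPM elsewhere, in saline B cells. Summed own markers were highest in their own class in every other class with a list, though classical monocyte markers (5690 and 6139 CPM) were nearly matched by alveolar macrophages (5665).

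A level is the usual CPM value, in which the UMIs of a gene are taken relative to the sum over its class in 1 library. A difference is the log2 ratio of the NP to the saline level. Brackets after a level or a ratio hold the 95% interval from the UMI counts (exact Poisson or conditional binomial), which covers counting error only and not the spread between mice. There is no test in this design, so "higher" and "lower" compare the libraries of 1 pool each. Levels are compared for 1 gene between classes or libraries, and never between genes.

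Ifngr1, the chain that binds IFN-γ, had its highest saline levels in monocytes and NK cells and its lowest in epithelial cells. Among the 11 compared classes, its level in the NP library was lower in all myeloid ones but alveolar macrophages. In saline the level was 1093 CPM (1012 to 1178) in non-classical monocytes, 961 CPM (887 to 1038) in NK cells, 906 CPM (857 to 956) in both-marker monocytes and 720.1 CPM (703 to 738) in classical monocytes. Fibroblasts held 541 CPM (479.7 to 608), neutrophils 378 CPM (373 to 384), T cells 318 CPM (299 to 337) and endothelial cells 259 CPM (233 to 287). Alveolar macrophages held 159 CPM (144 to 174), B cells 135 CPM (123 to 148) and epithelial cells 67.4 CPM (49.3 to 89.9). Endothelial cells and these last classes lay under the 283 CPM of the saline barcodes that held free RNA. The classes spanned 16.2-fold in saline and 14.4-fold in NP. Of the 10 neighbouring pairs in the saline order the intervals of 3 overlapped, as did 2 in NP, so most of the order exceeds counting error.

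In neutrophils 18205 Ifngr1 UMIs in saline and 6135 in NP gave 378 and 256 CPM, a log2 ratio of −0.57 (−0.61 to −0.52). Classical monocytes went from 720.1 to 486 CPM, a ratio of −0.57 (−0.62 to −0.52). The ratio was −0.72 (−0.81 to −0.63) in both-marker monocytes and −0.76 (−0.89 to −0.63) in non-classical monocytes. The difference was thus of like size in neutrophils and classical monocytes. It was somewhat larger in both-marker and non-classical monocytes, whose intervals did not overlap those of the former. Markers of other cells also differed between the libraries in the 3 monocyte classes. The 10 interstitial macrophage markers summed to 8264 and 3798 CPM (saline and NP) in both-marker monocytes, above the sums of their classical (2412 and 2908) and non-classical (2038 and 2331) markers, to 4356 and 2129 CPM in classical and to 3568 and 1850 CPM in non-classical monocytes. Between 5 and 9 of the 10 were detected, and Folr2 was at 0 in all but NP non-classical monocytes. The 15 neutrophil markers summed to 6143 and 3010 CPM in classical, 1269 and 944 in both-marker and 2106 and 1100 in non-classical monocytes. The part of these transcripts in the monocyte ratios was not tested. NK cells had 961 and 775 CPM, a ratio of −0.31 (−0.47 to −0.15), and B cells 135 and 91.3 CPM, a ratio of −0.57 (−0.77 to −0.36). The B cell value moved from −0.92 to −0.13 over the alternatives, and the neutrophil markers in B cells summed to 34744 and 20196 CPM in saline and NP. The part of those neutrophil transcripts in the B cell ratio was not tested. The libraries were level in T cells (−0.01, interval −0.14 to 0.12), alveolar macrophages (−0.02, interval −0.19 to 0.15), endothelial cells (−0.03, interval −0.20 to 0.14) and fibroblasts (0.03, interval −0.19 to 0.25), where the intervals leave room for a difference of up to 0.25 in size. In the plot of levels by class, Ifngr1 is the receptor chain whose saline and NP points part in the monocytes and neutrophils.

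**Figure D1:**
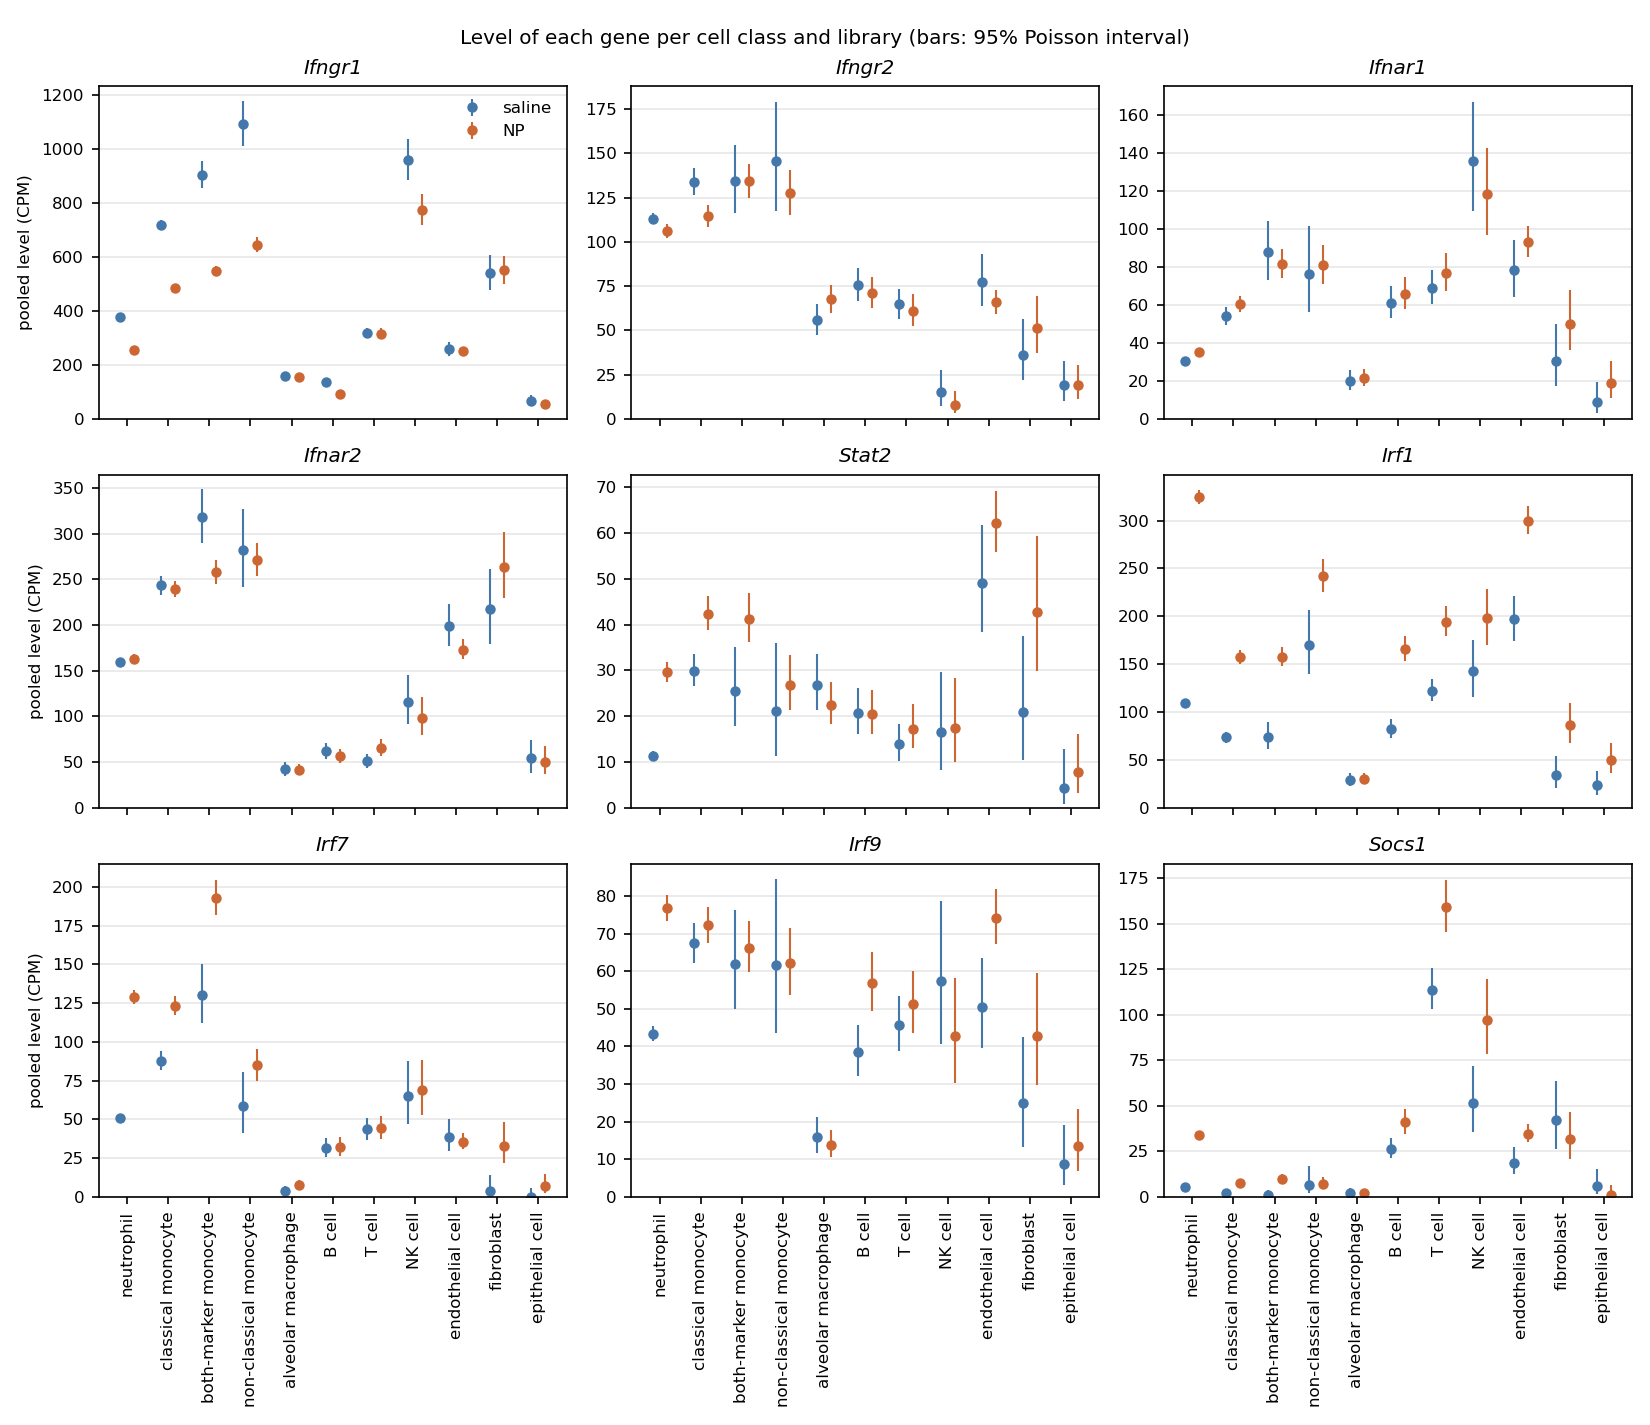
Levels of the 9 genes in the 11 classes, 1 panel per gene, with the class on the horizontal axis and the pooled level in CPM on the vertical axis. Points are the saline and the NP library and bars are exact 95% Poisson intervals, which cover counting error only. Ifngr1 sat lower in NP in neutrophils (378 against 256 CPM) and Irf1 higher (109 against 324 CPM).

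Ifngr2, the chain that signals once IFN-γ is bound, was lowest in NK and epithelial cells and highest in monocytes. Its saline level was 146 CPM (117 to 179) in non-classical monocytes, 134 CPM (116 to 155) in both-marker monocytes, 134 CPM (127 to 142) in classical monocytes and 113 CPM (110.1 to 116) in neutrophils. Endothelial cells held 77.4, B cells 75.6, T cells 64.7, alveolar macrophages 55.9, fibroblasts 36.3 and epithelial cells 19.0 CPM. NK cells had 10 UMIs in saline and 7 in NP, or 15.1 CPM (7.23 to 27.7) and 7.65 CPM (3.08 to 15.8). NK cells were therefore second in saline Ifngr1 and last in Ifngr2, and the NK level of Ifngr2 lay under that of the barcodes that held free RNA (70.8 and 67.2 CPM). The saline levels of T cells, alveolar macrophages, fibroblasts and epithelial cells also lay under 70.8 CPM. Unlike Ifngr1, Ifngr2 hardly differed between libraries, with ratios of −0.09 (−0.16 to −0.02) in neutrophils, −0.23 (−0.34 to −0.12) in classical monocytes and 0.00 (−0.23 to 0.23) in both-marker monocytes. The small neutrophil value changed sign, to 0.0400, when the median of all genes with at least 200 UMIs was subtracted. Alveolar macrophages went from 55.9 to 67.6 CPM, a ratio of 0.28 (−0.01 to 0.56).

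Ifnar1 and Ifnar2, the type I receptor chains, also differed little between libraries. Ifnar1 was highest in NK cells in both libraries, with 136 CPM (109 to 167) and 118 CPM (96.9 to 143), and low in neutrophils, with 30.4 and 35.0 CPM. Its neutrophil ratio of 0.20 (0.08 to 0.33) was the reverse in sign of that of Ifngr1, as was that of classical monocytes (0.16, interval −0.01 to 0.33, with 54.0 and 60.3 CPM). The neutrophil value ranged from 0.01 to 0.33 over the alternatives. Over the 11 classes Ifnar1 was higher in NP in 9 and lower in 2, with both-marker monocytes (−0.10) and NK cells (−0.20) the lower ones. Intervals of 8 of 10 neighbouring pairs overlapped in the saline order of Ifnar1 and 9 of 10 in NP, so its classes are ranked only coarsely.

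Ifnar2 was highest in monocytes, with 318 CPM (290.0 to 349) in both-marker, 282 CPM (242 to 327) in non-classical and 243 CPM (233 to 254) in classical monocytes of the saline library. Fibroblasts (218 CPM), endothelial cells (199 CPM) and neutrophils (159.7 CPM) came next, and alveolar macrophages were lowest (42.4 CPM). The neutrophil ratio was 0.03 (−0.02 to 0.09) and the classical monocyte ratio −0.02 (−0.10 to 0.06). Counting error is small in these classes, so the libraries were level to within those intervals. Both-marker monocytes were lower in NP, at 258 CPM and a ratio of −0.30 (−0.45 to −0.15), and T cells higher, with 51.1 and 65.4 CPM and a ratio of 0.36 (0.06 to 0.65).

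Stat2 and Irf9 form the complex downstream of the type I receptor, and in neutrophils both were higher in NP. Stat2 went from 545 UMIs and 11.3 CPM to 710 UMIs and 29.6 CPM there, a ratio of 1.38 (1.22 to 1.55). It was 29.9 and 42.4 CPM in classical monocytes, a ratio of 0.50 (0.29 to 0.72), and 25.5 and 41.3 CPM in both-marker monocytes, a ratio of 0.70 (0.19 to 1.24). Neutrophils had the lowest saline level of Stat2 among the leukocyte classes, and in NP its level lay above those of lymphocytes and alveolar macrophages. Stat2 was highest in endothelial cells in both libraries, with 49.0 and 62.3 CPM and a ratio of 0.35 (−0.03 to 0.74). In the lymphoid classes and alveolar macrophages its ratio lay between −0.26 in alveolar macrophages and 0.32 in T cells. Irf9 went from 43.4 to 76.8 CPM in neutrophils, a ratio of 0.82 (0.73 to 0.91). It was also higher in B cells (38.5 and 56.9 CPM, ratio 0.56, interval 0.24 to 0.89) and endothelial cells (50.4 and 74.3 CPM, ratio 0.56, interval 0.20 to 0.94). In classical monocytes it was nearly level, with 67.4 and 72.3 CPM and a ratio of 0.10 (−0.05 to 0.25).

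Irf1, a direct target of the IFN-γ signal and itself an activator of antigen presentation genes, was higher in NP in all 11 classes, and by more than counting error in 10 of them. Neutrophils held 5242 UMIs in saline and 7786 in NP, or 109 CPM (106 to 112) and 324 CPM (317 to 332), a ratio of 1.57 (1.52 to 1.62). Fibroblasts (34.4 and 86.8 CPM, ratio 1.33, interval 0.57 to 2.17), classical monocytes (73.4 and 158 CPM, ratio 1.10, interval 0.98 to 1.23), both-marker monocytes (74.4 and 158 CPM, ratio 1.08, interval 0.79 to 1.38) and B cells (82.1 and 166 CPM, ratio 1.02, interval 0.81 to 1.23) came next in size. The fibroblast value rested on 18 saline UMIs and ranged from 0.70 to 1.39 over the alternatives. In epithelial cells, with 16 and 45 UMIs, the ratio was 1.10 (0.25 to 2.03) and the median of all genes was 0.38. The markers of this class differed strongly between the libraries. Scgb1a1 had 290873 and 22941 CPM and Sftpc 90970 and 179897 CPM in saline and NP. The part of this difference in the epithelial ratios was not tested. T cells (0.67, interval 0.49 to 0.85), endothelial cells (0.61, interval 0.42 to 0.79), non-classical monocytes (0.51, interval 0.21 to 0.82) and NK cells (0.47, interval 0.10 to 0.84) had smaller ratios. Alveolar macrophages had 29.0 and 30.2 CPM and a ratio of 0.06 (−0.35 to 0.47), which turned sign under 4 alternatives. In saline the highest Irf1 level was in endothelial cells (197 CPM), and in NP in neutrophils, followed by endothelial cells (299.9 CPM). Free RNA also differed, with 92.6 CPM of Irf1 in saline and 213 in NP among barcodes under 50 UMIs, and its part in the smaller ratios was not tested. By the estimate used, free RNA made up 0.451% to 6.49% of the UMIs of a class. The estimate was read from surfactant genes, or from S100a8 and S100a9 in epithelial cells. It gave 1.45% in saline B cells, where neutrophil markers alone summed to 34744 CPM. It therefore does not count all transcripts of other cells in a class, and the part of those beyond the estimate in the smaller ratios was not tested.

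Irf7, the factor that amplifies the type I response, was higher in neutrophils and monocytes, while its ratios in lymphocytes lay near 0. Neutrophils had 50.7 and 129 CPM, a ratio of 1.35 (1.27 to 1.42), classical monocytes 87.6 and 123 CPM, a ratio of 0.49 (0.37 to 0.62), and both-marker monocytes 130.2 and 193 CPM, a ratio of 0.57 (0.34 to 0.80). In B cells (0.02, interval −0.37 to 0.41), T cells (0.02, interval −0.32 to 0.37), NK cells (0.09, interval −0.49 to 0.68) and endothelial cells (−0.12, interval −0.56 to 0.34) the intervals included 0. Irf7 thus parted from Irf1, which was higher in lymphocytes and endothelial cells as well. In fibroblasts Irf7 had 2 UMIs in saline and 27 in NP, with an interval of the ratio of 1.12 to 6.23, and its sign changed under other choices of cells. In alveolar macrophages 11 and 33 UMIs gave 1.02 (−0.01 to 2.15), with a range of −0.40 to 1.06 over the alternatives.

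Socs1, the inhibitor that closes the loop, showed the highest ratio of the 9 genes in neutrophils, while its levels among the 11 classes were highest in T cells. Neutrophils had 257 UMIs in saline and 813 in NP, or 5.34 CPM (4.71 to 6.04) and 33.9 CPM (31.6 to 36.3), a ratio of 2.66 (2.46 to 2.87). Classical monocytes had 20 and 90 UMIs, 2.17 and 7.40 CPM and a ratio of 1.77 (1.06 to 2.55). Both-marker monocytes had 1 UMI in saline and 55 in NP, with an interval of 1.24 to 9.11. T cells had 114 CPM (103 to 126) and 159 CPM (146 to 174), a ratio of 0.49 (0.29 to 0.68). The saline T cell level was thus above that of the other 10 classes in either library, though it overlapped that of NP NK cells within counting error. NK cells (51.3 and 97.3 CPM, ratio 0.92, interval 0.34 to 1.54), B cells (26.3 and 41.0 CPM, ratio 0.64, interval 0.26 to 1.04) and endothelial cells (18.7 and 34.7 CPM, ratio 0.89, interval 0.31 to 1.53) were higher in NP. Fibroblasts had 22 and 26 UMIs and a ratio of −0.40 (−1.28 to 0.48).

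Set side by side by class, the receptor chains and the downstream genes parted in neutrophils, and only in part in monocytes. In neutrophils Stat2, Irf1, Irf7 and Socs1, 4 of the 9 genes, were past a log2 ratio of 1, and none was past −1. Among the 11120 genes with at least 20 UMIs in that class, 4.59% were past 1 and 2.93% past −1, and the median of all of them was −0.13. In classical monocytes 2 of 9 (Irf1 and Socs1) were past 1, against 2.05% of 10764 genes (1.42% past −1), and in both-marker monocytes Irf1 and Socs1 were too, against 3.45% of 9230 (2.15%). In non-classical monocytes none of 9 was, against 3.83% of 8407 (3.10%). In B cells 1 of 9 (Irf1) was, against 1.44% of 9809 (2.56%). In T cells none of 9 was, against 2.42% of 9873 (1.68%), in NK cells none of the 8 with 20 UMIs, against 2.67% of 6996 (3.06%), and in endothelial cells none of 9, against 2.43% of 10966 (1.82%). Irf7 was the 1 of 8 in alveolar macrophages, against 1.39% of 9865 (1.53%). Fibroblasts had 3 of 9 (Stat2, Irf1 and Irf7), against 4.38% of 7642 (3.90%), and epithelial cells 2 of 5 (Ifnar1 and Irf1), against 16.2% of 6536 (3.41%). None of the 9 genes with 20 UMIs was past −1 in any of these 11 classes. In neutrophils Irf1 stood 1.70, Stat2 1.51, Irf7 1.47 and Socs1 2.79 above that median of all genes, while Ifngr1 stood 0.44 under it. The heat map of ratios shows the split in neutrophils. In monocytes the split was partial, with Irf9 near 0 (0.10 in classical and both-marker, 0.01 in non-classical monocytes). Ifnar1 lay above Irf9 in classical (0.16) and non-classical (0.08) monocytes. The non-classical intervals of Stat2, Irf9 and Socs1 included 0. Elsewhere the split was less clear, with Ifnar1 over 0 in 9 of the 11 classes. Irf9 was under 0 in NK cells (−0.43), Stat2 and Irf9 in alveolar macrophages (−0.26 and −0.21) and Socs1 in fibroblasts (−0.40).

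**Figure D2:**
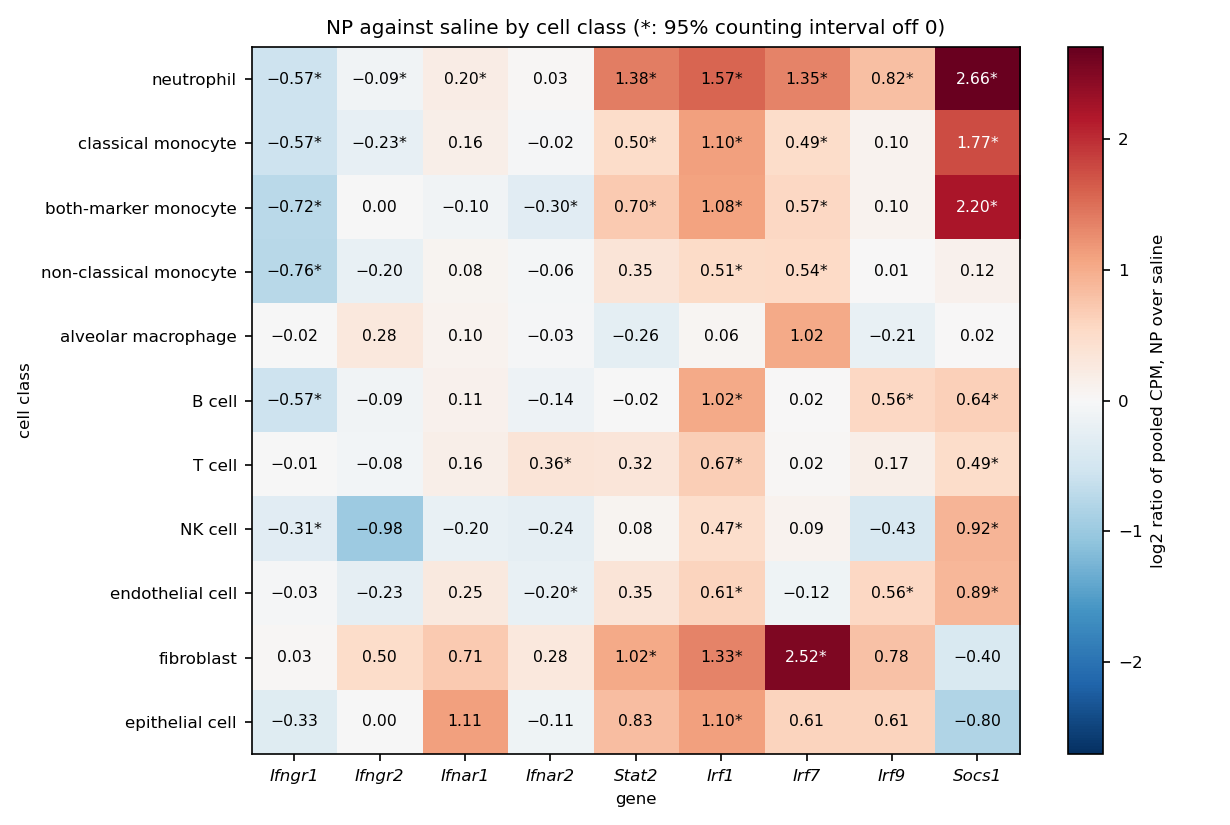
Heat map of the log2 ratio of the NP to the saline level for the 9 genes (columns) in the 11 classes (rows). The color scale is the log2 ratio, counts under 3 were set to 3, and an asterisk marks a 95% counting interval that leaves out 0. Irf1 was over 0 in all 11 classes and Ifngr1 under 0 in 10, of which Irf1 in alveolar macrophages and several Ifngr1 values turned sign under alternatives.

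Neutrophils fell into 6 large clusters, whose makeup differed between libraries, so the ratios were also taken within each. The clusters are called here by their leading genes. Cells led by Ccrl2 and Ptgs2 made up 17.5% of saline and 34.3% of NP neutrophils, those led by Saa3 and Il1b 21.6% and 23.2%, those led by Csta3 and Stfa2 21.5% and 8.24%, and those led by Stfa3 and Stfa2 13.2% and 3.33%. The others were led by Prok2 and Retnlg (950 saline and 604 NP cells) and by Ltf and Camp, granule genes of immature neutrophils (496 and 323 cells). Ifngr1 was lower in NP in all 6, with ratios of −0.59 (−0.68 to −0.50) in the Ccrl2 cluster, −0.61 (−0.71 to −0.52) in the Saa3 cluster and −1.03 (−1.17 to −0.89) in the Ltf cluster. Irf1 was higher in NP in all 6, at 227 and 757 CPM in the Ccrl2 cluster, a ratio of 1.74 (1.62 to 1.85), and 0.49 (0.28 to 0.69) in the Ltf cluster. The direction of both genes was thus the same within each cluster. Socs1 ratios ran from 0.99 (0.07 to 1.92) in the Ltf cluster to 3.04 (2.49 to 3.60) in the Csta3 cluster, and Stat2 ratios from 0.26 (−0.57 to 1.00) in the Stfa3 cluster to 2.04 (1.59 to 2.48) in the Csta3 cluster. With each cluster given equal weight, an alternative chosen after the data were seen, the mean ratios were −0.62 for Ifngr1, 1.32 for Irf1, 1.12 for Irf7, 1.14 for Stat2, 0.74 for Irf9 and 2.23 for Socs1. Those of Ifngr2 (−0.13) and Ifnar2 (−0.06) stayed near 0. The mean ratio of Ifnar1 (0.01) lay under the interval of its pooled neutrophil ratio (0.20, interval 0.08 to 0.33). Over the 6 clusters the Ifnar1 ratio ran from −0.26 to 0.46.

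The saline level of each gene also varied among these clusters. Ifngr1 had 667 CPM in the Ccrl2 cluster, 547 in the Saa3, 481 in the Csta3, 382 in the Prok2, 369 in the Stfa3 and 163 in the Ltf cluster. The response size, defined as the median log2 ratio of the tested genes on a hand-written list of 45 IFN-γ response genes minus the median of all genes, followed the same order, with 2.40, 1.92, 1.83, 1.27, 0.59 and 0.54. The tested genes numbered 32 in the Ccrl2 and 23 in the Ltf cluster. Before subtraction the list medians of all tested genes were 2.10, 1.55, 1.49, 1.12, 0.42 and 0.45. With the 23 genes tested in every cluster they were 1.53, 1.33, 1.01, 0.99, 0.42 and 0.45. The Stfa3 and Ltf clusters had only those 23 genes, so their medians were the same. After subtraction the medians of the 23 genes kept the same order as the response size. Spearman's rho of saline level against response size over the 6 clusters was 1.0 for Ifngr1, Ifngr2, Ifnar1, Ifnar2, Irf1 and Socs1 and 0.94 for Stat2, Irf7 and Irf9. The median UMIs per cell ran the opposite way, from 3480 in the Ccrl2 to 22363 in the Ltf cluster, with a rho of −1.0. Level and depth per cell cannot be told apart over these 6 points, which all come from the same pair of libraries. The plot of neutrophil clusters sets the ratios of the 9 genes beside the list median of each cluster.

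**Figure D3:**
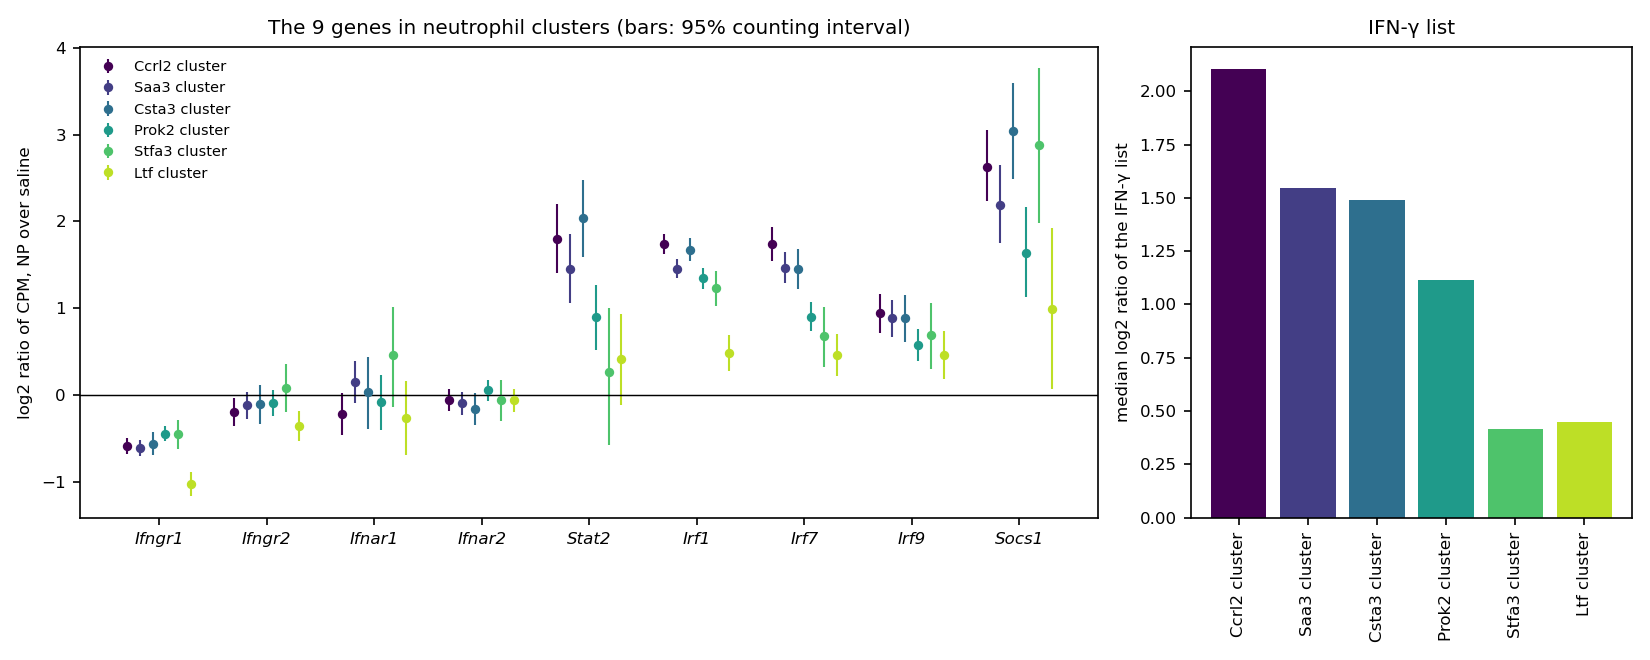
Left, log2 ratio of the NP to the saline level (vertical axis) of the 9 genes in the 6 neutrophil clusters, colored and named by leading gene, with 95% counting intervals. Right, bars from 0 give the median log2 ratio of the IFN-γ list in each cluster, before the median of all genes is subtracted. Ifngr1 lay under 0 and Irf1 over 0 in all 6 clusters.

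Classical monocytes held 3 large clusters, and 1 of them was mostly saline. Cells led by Ccr2 and Thbs1 (210 saline and 356 NP) had 814 and 526 CPM of Ifngr1, a ratio of −0.63 (−0.70 to −0.55), and an Irf1 ratio of 0.80 (0.62 to 0.98). Those led by F13a1 and Vcan (128 and 275 cells) had ratios of −0.42 (−0.52 to −0.32) and 1.48 (1.22 to 1.76). The mostly saline cluster (203 and 31 cells) had −0.40 (−0.58 to −0.23) and 0.34 (−0.18 to 0.84). Ifngr1 was lower in NP in each. Without the mostly saline cluster, an alternative chosen after the data were seen, the class had ratios of −0.53 for Ifngr1, 1.04 for Irf1, 1.68 for Socs1, 0.56 for Stat2 and 0.45 for Irf7.

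Shares of cells with a UMI were taken after each cell was thinned to 1000 UMIs. Ifngr1 was seen in 36.7% (35.4% to 37.9%) of saline and 26.7% (25.2% to 28.3%) of NP neutrophils, and in 51.0% and 37.3% of classical and 67.0% and 47.6% of non-classical monocytes. Before thinning the neutrophil shares were 88.5% and 77.6%. In epithelial cells, where the level was lowest, the thinned shares were 1.92% and 1.96%, far under those of neutrophils. Irf1 was seen in 12.1% of saline and 29.7% of NP neutrophils, and Socs1 in 0.877% and 3.76%. Both IFN-γ receptor chains were seen in the same cell in 5.39% (4.81% to 6.01%) of saline and 3.89% (3.23% to 4.64%) of NP neutrophils and in 12.1% (6.19% to 20.6%) and 4.51% (2.60% to 7.22%) of non-classical monocytes. No NK cell showed both at this depth, of 127 saline and 140 NP cells, which allows shares of up to 3 cells of each total, or 2.36% and 2.14%. At 1000 UMIs a missing UMI does not show that the chain was absent.

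Within neutrophils, cells with a UMI of a downstream gene also held more IFN-γ response transcripts. Among NP neutrophils at 1000 UMIs, the 115 cells with a Socs1 UMI gave the response list 1.53% of their UMIs on average and the 2944 others 0.564%, a ratio of 2.72. For Irf7 the means were 0.972% and 0.539%, for Irf1 0.846% and 0.497%, and for Ifngr1 0.650% and 0.583%. The Ifngr1 ratio was 1.12, under those of the downstream genes. Many NP neutrophils without an Ifngr1 UMI at this depth did hold Ifngr1 UMIs before thinning. The contrast therefore cannot show how far Ifngr1 goes with the response from cell to cell. The neutrophil clusters, whose levels and responses differed, were not separated in these means. In NP classical monocytes the gap was smaller for the downstream genes. The ratios there were 1.15 for Irf7, 1.10 for Irf1, 1.09 for Stat2 and 1.03 for Irf9. In saline neutrophils the means were 0.349% and 0.249% for Socs1 and 0.265% and 0.241% for Ifngr1. Cells are not replicates, and these means describe the libraries.

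The response that these levels are set beside was largest in neutrophils, where 34 of the 35 IFN-γ list genes with at least 20 UMIs over both libraries were higher in NP, 24 of them past 1 (against 4.59% of all genes tested), with a median of 2.04. These are a description, since genes such as Cxcl9 reached the minimum only through the NP library. The genes with the highest ratios there were Cxcl9 (2 and 478 UMIs, interval 7.04 to 11.95) and Cxcl10 (5.84, interval 5.48 to 6.23), chemokines that draw T cells, and Gbp5 (4.94, interval 4.52 to 5.40) and Gbp4 (4.49, interval 3.77 to 5.30), guanylate-binding proteins of host defence. On the IFN-α list they were Ifit3 (3.28, interval 2.83 to 3.76), Rsad2 (3.08, interval 2.91 to 3.24), Ifit3b (3.03, interval 2.69 to 3.39) and Ifit1 (2.78, interval 2.62 to 2.94), antiviral genes. With the list genes measured in every class, chosen after the data were seen, the neutrophil median was 0.76, that of both-marker monocytes 0.70, and those of endothelial cells and classical monocytes 0.47. The response size was 2.17 in neutrophils, 1.36 in both-marker monocytes, 1.26 in endothelial cells, 1.12 in classical monocytes and 0.76 in non-classical monocytes. It was 0.53 in fibroblasts (a value that changed sign under other choices of cells), 0.39 in T cells, 0.32 in B cells, 0.27 in alveolar macrophages, 0.24 in NK cells and 0.11 in epithelial cells. The tested list genes numbered 12 in epithelial cells, 25 in NK cells and 26 in fibroblasts, and from 31 to 40 in the other classes. The list median behind the alveolar macrophage value turned to −0.0388 without Scrublet's doublet calls, and that of epithelial cells to −0.39 with list genes of 1 UMI and to 1.28 with classes from each cell's marker score. Endothelial cells, next in this order after both-marker monocytes, had IFN-γ receptor levels under those of the monocytes (259 CPM of Ifngr1 and 77.4 of Ifngr2 in saline).

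Over the 11 classes, the saline level of the receptor chains went with the response size to unequal degrees. For Ifngr2 Pearson's r was 0.67 and Spearman's rho 0.79, and without the 2 classes farthest from the median level, NK and epithelial cells, r was 0.57 and rho 0.63. For Ifnar2 r was 0.62 and rho 0.68, and 0.55 and 0.62 without 2 classes. For Ifngr1 r was 0.35 and rho 0.38, and 0.24 and 0.15 without 2 classes. Leaving out NK cells alone, which had high Ifngr1, low Ifngr2 and a small response, gave a rho of 0.66 for Ifngr1, and leaving out epithelial cells alone gave 0.18. For Ifnar1 r was 0.13 and rho 0.24, and −0.42 and −0.25 without 2 classes. The chains with the closer relation were thus Ifngr2 and Ifnar2, 1 of each receptor, although Ifnar2 fell to a rho of 0.19 at a clustering resolution of 2. Downstream, the rho of the saline level was 0.37 for Stat2, 0.35 for Irf1, 0.55 for Irf7 and Irf9 and −0.37 for Socs1. Without the 2 farthest classes it was 0.05 for Stat2, −0.07 for Irf1, 0.30 for Irf7, 0.27 for Irf9 and −0.25 for Socs1, so for Stat2 and Irf1 the relation rests on those classes. Against the IFN-α list the rho was 0.67 for Ifngr2, 0.62 for Ifnar2, 0.40 for Ifngr1 and −0.08 for Ifnar1. The IFN-α value of epithelial cells rested on 4 tested genes (2 higher and 2 lower) and that of NK cells on 18. The NP against saline ratio of Ifngr1 had a rho of −0.04 with the response size, and those of Socs1, Stat2, Irf1, Irf9 and Irf7 had 0.68, 0.65, 0.55, 0.40 and 0.25. These 11 points share both libraries, their free RNA and their marker-based borders. The saline median UMIs per cell had a rho of −0.02 with the response size. The scatter of level against response shows the classes by name.

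**Figure D4:**
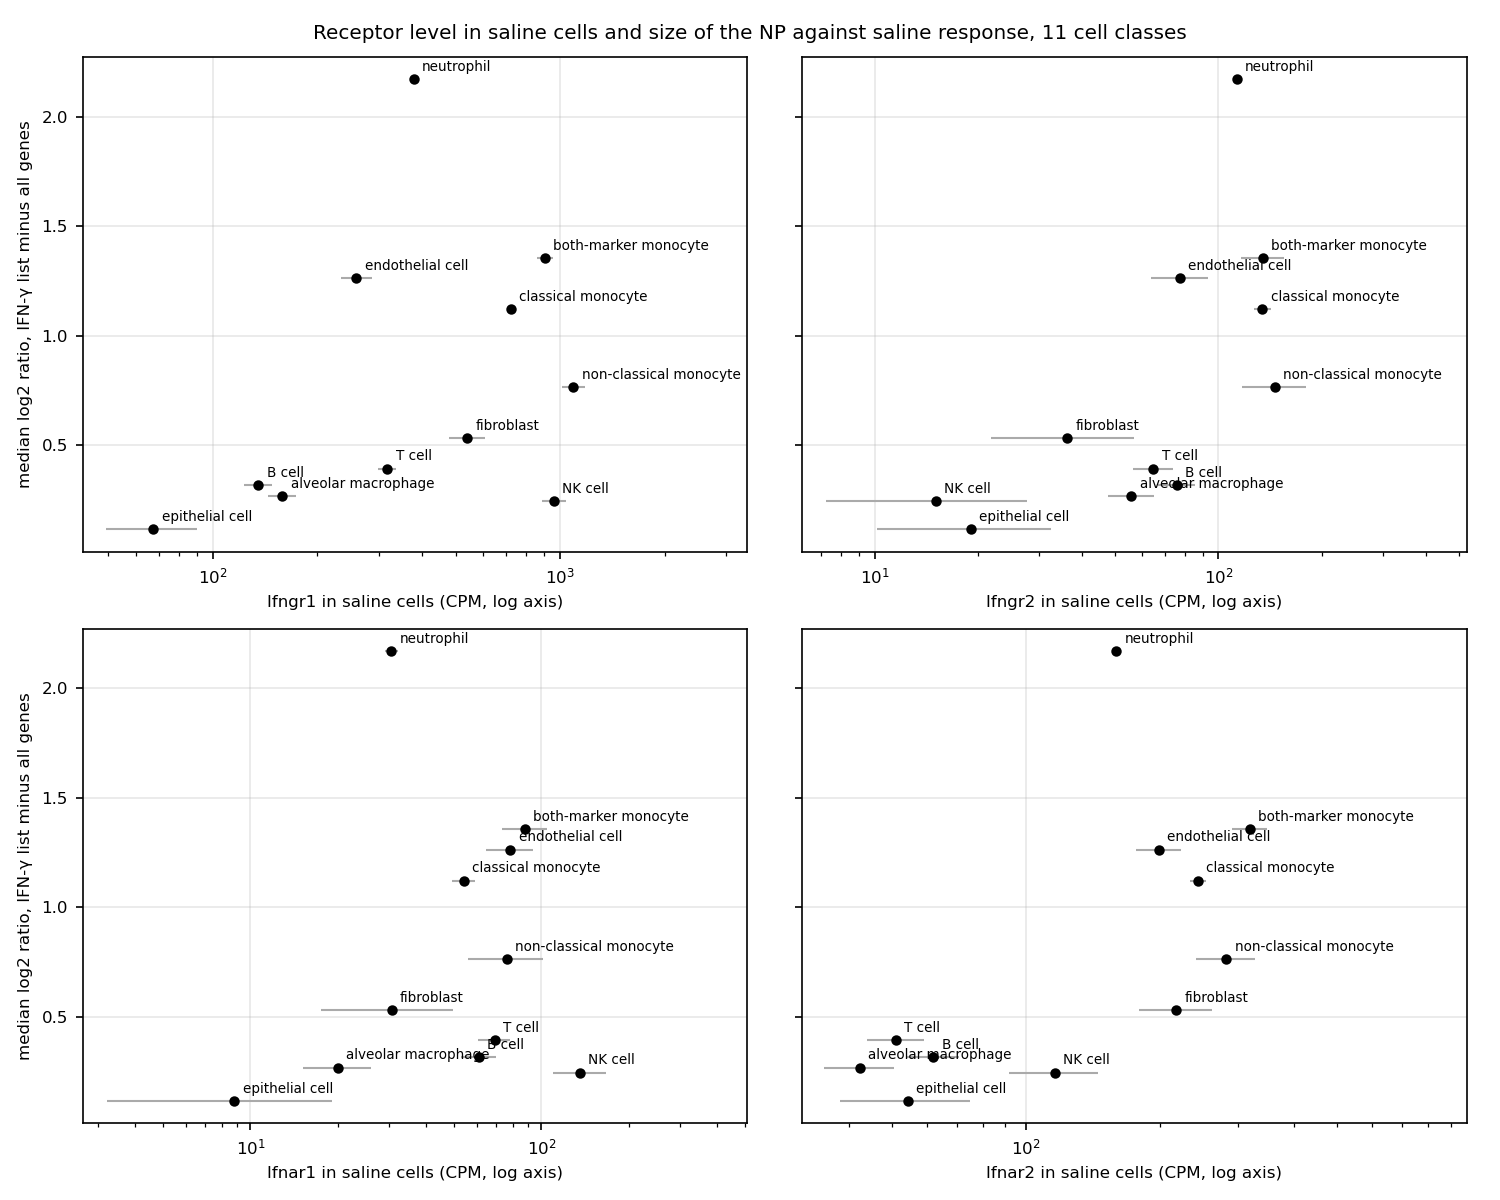
Saline level of each receptor chain (log horizontal axis, CPM, with 95% Poisson intervals) against response size (vertical axis, median log2 ratio of the IFN-γ list minus that of all genes) for the 11 classes. Neutrophils had the largest response at middling levels of Ifngr1, and NK cells sat at low Ifngr2 and high Ifngr1 with a small response.

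The wider pathway list of 36 other genes, which holds further kinases, IRFs, SOCS proteins and phosphatases, differed less between libraries. In neutrophils 2 of 33 tested were past 1 and none past −1, with a median of 0.04, and in classical monocytes none of 31 was, with a median of −0.08. Both counts lie near the background of those classes, where 4.59% and 2.05% of all genes tested were past 1 and 2.93% and 1.42% past −1. In epithelial cells 4 of 21 were past 1, against 16.2% of all genes, and in NK cells 2 of 28, against 2.67%. Each other class had at most 1 list gene past 1 and at most 1 past −1. The highest ratio among the genes named was that of Usp18, which blocks the type I receptor, with 160 and 326 UMIs in neutrophils and 2.03 (1.75 to 2.31). Usp18 was also higher in classical (0.78) and both-marker (1.17) monocytes. It was lower in B cells (15 and 4 UMIs, interval −4.05 to −0.35) and epithelial cells (7 and 1 UMIs, interval −8.69 to −0.24), and its other intervals included 0. Irf8, a factor of monocyte and dendritic cell development, had 1.20 (0.71 to 1.71) in T cells. It was also higher in neutrophils (1.07, interval 0.43 to 1.72), all monocyte classes, B cells and NK cells, and its other intervals included 0. Jak2, the kinase bound to IFNGR2, had 1.04 (0.49 to 1.65) in non-classical monocytes. It was also higher in neutrophils (0.14), classical (0.24) and both-marker (0.63) monocytes and epithelial cells (1.15), and its other intervals included 0. Socs3, which blocks IL-6 family signals, was lower in fibroblasts, with 516 and 260 CPM and −0.99 (−1.25 to −0.72). It was also lower in endothelial cells (−0.69), non-classical (−0.69), classical (−0.59) and both-marker (−0.53) monocytes and alveolar macrophages (−0.60). In neutrophils (0.24) and T cells (0.34) Socs3 was higher, and in B, NK and epithelial cells its intervals included 0. Irf4 was lower in classical monocytes (−0.74, interval −1.22 to −0.26) and in both-marker monocytes (11 and 17 UMIs, −1.37, interval −2.55 to −0.13). Its other intervals included 0. Others named by size were Jak3 in both-marker monocytes (0.75, interval −0.04 to 1.64), Socs6 in endothelial cells (0.69, interval −0.06 to 1.53), Irf3 in non-classical monocytes (−0.66, interval −1.28 to 0.01), and in epithelial cells Socs2 (1.03, interval 0.66 to 1.41), Ptpn1 (0.96, interval 0.36 to 1.59), Stat3 (0.78, interval 0.20 to 1.39) and Crebbp (0.72, interval 0.10 to 1.36). The epithelial values stand beside a median of all genes of 0.38 and the unlike levels of Scgb1a1 and Sftpc given above. These intervals of Jak3, Socs6 and Irf3 include 0. Socs6 intervals included 0 in the other classes as well. Irf3 was lower in neutrophils (−0.21, interval −0.40 to −0.02), classical monocytes (−0.40, interval −0.64 to −0.16) and endothelial cells (−0.43, interval −0.76 to −0.09). Jak3 was lower in alveolar macrophages (35 and 28 UMIs, −0.89, interval −1.66 to −0.13). Other intervals of Irf3 and Jak3 included 0. Values of Socs2, Ptpn1, Stat3 and Crebbp in other classes are not given here.

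Genes whose pattern was most like each of the 9 were taken from the correlation of log2(CPM + 10) over 32 class-by-library values and 8287 genes, a description of points that share libraries and free RNA. Those values include the named classes under 50 cells in a library, some with few UMIs of a gene. Irf7 and Irf9 were each other's nearest (r = 0.89), followed for Irf7 by Trim30a (0.86) and Slfn8 (0.81) and for Irf9 by Sp100 (0.83) and Tap1 (0.82). Irf1 was most like H2-D1 (0.75), Tap1 (0.75) and Irf9 (0.72), the first being an MHC class I heavy chain and the second a peptide transporter of that pathway. Genes like Stat2 included Fam241a (0.80) and Bst2 (0.77). Among the receptors, Ifnar1 was most like Phf11b (0.84), Mndal (0.80) and Ifi203 (0.79), Ifnar2 like Palm (0.75), Fam174a (0.74) and St3gal4 (0.72), Ifngr1 like Klf3 (0.82), Asap1 (0.79) and Fam53c (0.74), and Ifngr2 like Nrros (0.78), Sgk3 (0.77) and Tor1a (0.76). Genes like Socs1 included Pnrc1 (0.84) and D830025C05Rik (0.82). The chains of a receptor were not close to each other, with r = 0.30 for Ifngr1 and Ifngr2 and 0.50 for Ifnar1 and Ifnar2.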

How the data were processed

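The authors aligned the reads to mm10 with Cell Ranger (6.0 per the submitters' processing notes) and deposited raw matrices of UMI counts per gene and barcode, with no normalization or cell selection. The samples are 1 saline and 1 NP library (91168129 and 90081747 UMIs).

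From these counts, barcodes with 500 to 5000 genes and under 7.5% mitochondrial UMIs were kept, scaled to 10000 and log transformed. Clusters came from 2000 variable genes (without the 9 genes, pathway and response genes), 30 principal components, 20 neighbors and the Leiden method at resolution 1. Clusters that scored as monocytes, interstitial macrophages or dendritic cells without another lineage were then clustered again together by the same steps. The final clusters were named from marker lists, so differences from the study may come from rebuilt names. Doublets were kept, since Scrublet called only 1 saline cell (0.0115%) and 311 NP cells (3.73%). Its calls, and then the highest 6% of scores (520 and 500 cells), were removed as alternatives.

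Levels are UMIs scaled to the class total (CPM) with exact Poisson intervals. Ratios have exact conditional binomial intervals, with counts under 3 set to 3. Shares have Clopper-Pearson intervals at 95%, and a share of 0 has a limit of 3 counts. For the NP against saline comparisons, classes needed 50 cells in each library and list genes 20 UMIs. With 1 library per group no test was run. The 9 genes, lists and most alternatives were chosen with earlier results of these data known. Other genes named are the up to 12 of the pathway list with the largest ratio (at least 100 UMIs), the 4 highest per response list in neutrophils (100 UMIs), and the 3 most correlated per gene (1000 UMIs). Some genes under this rule are not reported here. Free RNA was read from barcodes under 50 UMIs. The ratio with its interval, and a list median, were tried on Poisson counts simulated for neutrophils, classical monocytes and endothelial cells. The interval assumes that same error, so its coverage there was largely set in advance. Clustering, naming, thinning, free RNA and doublets were not simulated.

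Alternatives were limits of 200 or 800 genes and 5% or 15% mitochondrial UMIs, resolution 2, response genes kept in clustering, classes from each cell's marker score, doublet removal, free RNA subtraction, centring on all genes, equal weight per cell, an added count, other UMI minimums and thinning to 500 or 2000 UMIs. For rho, the IFN-α list, the mean of saline and NP levels and the leaving out of classes were added. Removal of the highest doublet scores, the list genes measured in every class, equal weight per neutrophil cluster and monocytes without the mostly saline cluster were chosen after seeing the data. Clustering used leidenalg 0.10.2 with igraph 0.11.9 and principal components from scikit-learn 1.9.0. Doublet scores came from scanpy 1.11.5 with anndata 0.12.19, intervals from scipy 1.17.1, tables from pandas 2.3.3 and numpy 2.4.6, and figures from matplotlib 3.10.9, all under Python 3.11.15.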

Additional observations from a re-analysis of the deposited data

Results flagged for a closer look

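Ifnar2, a chain of the type I interferon receptor, differed between the libraries in opposite directions in T cells and in both-marker monocytes, each with a counting interval off 0. The log2 ratio was 0.36 in T cells and −0.30 in both-marker monocytes. The difference between the 2 classes was not tested, since each class has 1 library per group.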

How the results depend on the processing

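Of 1251 alternative values of the 9 genes' ratios, 1202 stayed within the counting interval. With equal weight per neutrophil cluster, however, 7 of the 9 neutrophil ratios moved out of it. The sign differed in 92 of the 1251 values, over 32 of 99 ratios, and in 89 of these the interval had included 0. The other 3 were Ifngr2 in neutrophils, at 0.0400 after centring on all genes, and Irf7 in fibroblasts, at −0.12 with classes from each cell's marker score and −0.23 without the highest doublet scores. The median ratio of the IFN-γ list was 0.28 in B cells and took 0.20 and 0.18 with 200 and 800 genes, 0.22 and 0.17 with mitochondrial limits of 5% and 15%, 0.21 at resolution 2, 0.19 with response genes kept in the clustering and 0.20 without the highest doublet scores. In fibroblasts it was 0.53 and took 0.16 and 0.0941 with 200 and 800 genes, 0.11 at the 5% limit, 0.10 at resolution 2, 0.23 without Scrublet's calls, −0.0208 without the highest doublet scores and −0.23 by marker score. By marker score it was 1.03 in non-classical monocytes and 1.28 in epithelial cells, where list genes with 1 UMI gave −0.39. In alveolar macrophages it was −0.0388 without Scrublet's calls and 0.00145 without the highest doublet scores. With the list genes measured in every class it was 0.76 in neutrophils, 0.47 in classical monocytes, 0.70 in both-marker monocytes and 0.47 in endothelial cells, from fewer genes. The IFN-α list median of fibroblasts was −0.0464 at resolution 2, −0.45 by marker score and −0.85 with those genes. The cause of the other moves was not tested. Over 21 settings rho of saline level and response size ran from 0.63 to 0.84 for Ifngr2, 0.10 to 0.66 for Ifngr1, 0.19 to 0.76 for Ifnar2, −0.25 to 0.53 for Ifnar1, −0.10 to 0.71 for Stat2, −0.07 to 0.54 for Irf1, 0.30 to 0.78 for Irf7, 0.27 to 0.76 for Irf9 and −0.59 to −0.02 for Socs1. Those settings include the IFN-α list as the response, the mean of saline and NP levels as the level, and classes left out. A class under 50 cells in a setting has no value there. No paired analysis was possible because the groups share only 1 replicate number and no test was run. Fibroblast, epithelial and NK values rest on few cells, and counting intervals leave out the spread between mice.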

Other observations

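Classes under 50 cells in a library were kept out of the NP against saline comparisons, though their levels entered the gene-to-gene correlations. Their values are given here without further reading. Plasmacytoid dendritic cells, the main source of type I interferon and 18 and 32 cells here, had the highest Irf7 level of any class in saline, with 518 CPM from 104 UMIs, against 217 CPM from 86 UMIs in NP, a ratio of −1.26 (−1.69 to −0.83). This runs opposite in sign to Irf7 in neutrophils. Their Ifnar2 levels were 428 and 539.7 CPM. Ifngr1 had 7 and 27 UMIs in these cells, a ratio of 0.97 (−0.27 to 2.41). Interstitial macrophages (16 and 35 cells) had 33 and 105 UMIs of Ifngr1, a ratio of 0.20 (−0.38 to 0.81). Conventional dendritic cells (47 and 79 cells) had 249 and 277 UMIs of Ifngr1, a ratio of −0.67 (−0.92 to −0.42), and an Irf1 ratio of 0.74 (0.20 to 1.31). Basophils (21 and 39 cells) had 7 and 61 UMIs of Irf1, a ratio of 2.49 (1.37 to 3.87), 25 and 74 of Socs1, or 144 and 275 CPM, levels above those of T cells, with a ratio of 0.94 (0.27 to 1.65), and 26 and 15 of Ifngr1, a ratio of −1.42 (−2.44 to −0.45). In mural cells (10 and 56 cells) Irf1 had 2 and 66 UMIs, with an interval of 0.39 to 5.37.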
